A study of Lactuca sativa with 9 samples.

Results

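The DNA replication genes of lettuce were read from the table of gene expression values of leaves grown at 3 light intensities. A gene was taken where its KEGG annotation named DNA replication, or where its description named DNA replication, proliferating cell nuclear antigen (PCNA) or ribonucleoside-diphosphate reductase. Rows that named a histone were left out. This gave 234 of the 35342 genes in the table, of which 120 had a mean of at least 0.5 FPKM over all libraries and were tested, and 114 did not. FPKM, the number of sequenced fragments per kilobase of transcript in a library brought to a common size, is a level scaled to gene length and library size.

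The plants were of the cultivar Hong Kong Glass, and leaf tissue was taken at 24 days of age after growth at 340 (Las_SL, high light), 175 (Las_ML, medium light) or 60 (Las_WL, low light) µmol per square metre per second. All groups had the same genotype, and they differed in the labels by light intensity alone. Each group held 3 biological replicates, and leaf pieces were cut and mixed before RNA extraction, so a library stands for a mixture of leaf cells. The paper describes rRNA depletion and RNase R digestion of linear RNA before sequencing, whereas the sample labels describe selection of polyadenylated RNA, and which of these preceded the expression values is not known. The paper also gives the light intensities of Las_SL and Las_WL the other way round in places, and the groups used here follow the sample labels.

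DNA replication takes place in the S phase of the cell cycle. The hexameric MCM helicase unwinds the duplex with its partner GINS, primase and DNA polymerase alpha lay down primers, and the clamp loader RFC places the ring-shaped PCNA on the template, where it holds DNA polymerases delta and epsilon. Replication protein A (RPA) covers the exposed single strands, flap endonuclease, Dna2, RNase H2 and DNA ligase finish the lagging strand, and ribonucleotide reductase supplies the deoxynucleotides. In leaves these genes are known for expression in young tissue that still divides, and in cells that copy their DNA without dividing, and for low expression in mature blades.

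The libraries of one light group differed widely in these genes, and this is given first because every comparison below rests on it. PCNA (LOC111916510) had levels of 30.7, 0.377 and 13.1 FPKM in Las_SL replicates 1, 2 and 3. The levels in the Las_ML replicates were 0.889, 20.3 and 23.3 FPKM, and those in the Las_WL replicates were 134, 1.12 and 0.448 FPKM. Las_WL replicate 1 thus held the highest level of all, while Las_SL replicate 2, Las_ML replicate 1 and Las_WL replicates 2 and 3 lay near the lower end, and every group overlapped with the others. The highest library exceeded the lowest 355-fold. In bulk leaf tissue, fewer cells that express a gene and less of its RNA per cell cannot be told apart.

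The group means of PCNA were 14.7 ± 15.2 FPKM in Las_SL, 14.8 ± 12.2 FPKM in Las_ML and 45.2 ± 76.9 FPKM in Las_WL (SD, n = 3 each). Exact permutation tests (two-sided, 3 comparisons) gave p = 1.0 between Las_SL and Las_ML, p = 0.9 between Las_WL and Las_ML and p = 0.8 between Las_SL and Las_WL, and the smallest p that 3 against 3 libraries allow is 0.1. All 3 values were 1.0 after Benjamini-Hochberg adjustment. Without Las_WL replicate 1, the Las_WL mean minus the Las_ML mean was -14.1 FPKM, against 30.4 FPKM with all libraries. The difference between light groups was therefore smaller than the spread between replicates, and its direction in the comparisons with Las_WL rested on a single library.

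**Figure D1:**
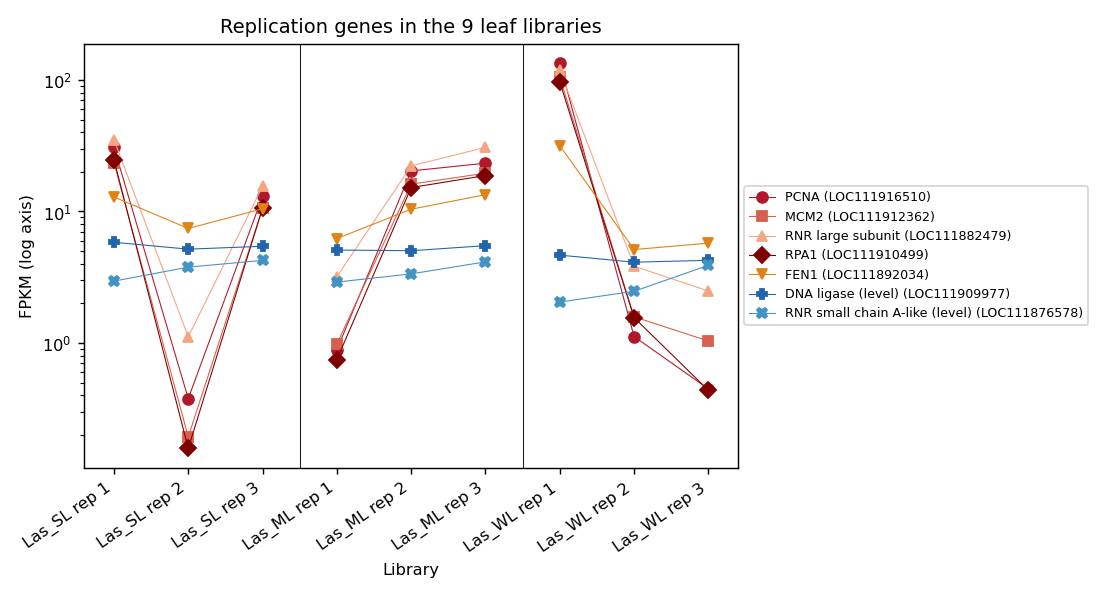
FPKM (log axis) of 7 replication genes in each of the 9 libraries, ordered by light group, 1 point per library, with lines that only join the points of a gene within a group. PCNA, MCM2, RPA1 and the large subunit of ribonucleotide reductase (RNR) ran together from below 4 FPKM in 4 libraries to 96.7 FPKM or more in Las_WL replicate 1, FEN1 did so over a smaller range, and a DNA ligase and a small chain of RNR stayed between 2.05 and 5.83 FPKM.

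Among the other 119 tested genes, 58 had a Pearson correlation of at least 0.8 with PCNA over the 9 libraries on the log2(FPKM + 1) scale. These are called genes that follow PCNA, 59 with PCNA itself. Of all 26144 other genes tested, 19.1% reached the same correlation. A further 32 genes stayed level, defined as a correlation below 0.8 and less than 1 log2 unit between the highest and the lowest library, a pattern that 38.8% of all genes showed. The remaining 29 varied more than that without following PCNA. The libraries behind these correlations share their extraction and sequencing, and Las_WL replicate 1 lies far from the others. Without it 53 genes followed PCNA (12.6% of all genes), and with each library centred on its group mean 65 did (26.2% of all genes).

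The separation could be compared with an annotation that the rule did not use. Gene Ontology terms were counted where they named DNA replication or one of its proteins, such as DNA polymerase, primase, clamp loader, DNA ligase or ribonucleoside-diphosphate reductase. Such a term of replication was given to 46 of the 59 genes that follow PCNA, to 7 of the 32 level genes and to 5 of the 29 remaining genes. These terms and the rule name many of the same proteins, so the comparison is not an independent check. Several of the level and remaining genes carried a KEGG number of a replication protein beside a description of another protein. Examples are LOC111907078 (MCM5 number, described as FAD dependent oxidoreductase), LOC111885446 (RNase H2 subunit B number, Armadillo-type fold) and LOC111896816 (RPA1 number, disease resistance protein). Genes that follow PCNA held such cases too. Among them were LOC111907636 (RPA1 number, FKBP62-like peptidyl-prolyl isomerase) and LOC111919553 (DNA polymerase I number, EPIDERMAL PATTERNING FACTOR 2-like). The 114 genes that were not tested reached at most 1.951 FPKM in any library. The KEGG number of RPA1 accounted for 56 of them and that of DNA polymerase delta subunit 2 for 36, and 57 were described as uncharacterized and 8 as CACTA transposable elements.

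The genes that follow PCNA differed in how far they moved. Between the lowest and the highest library, 16 spanned at least 4 log2 units, 31 spanned 2 to 4 units, 8 spanned 1 to 2 units and 4 less than 1 unit. The first set held 7 genes of MCM and GINS and had a median lowest level of 0.238 FPKM, whereas the second set had a median lowest level of 1.078 FPKM and the third 5.639 FPKM. In the fourth set the median lowest level was 2.586 FPKM, and single genes of the sets with the narrower spans also came close to 0, down to 0.135 FPKM in the third. The highest library was Las_WL replicate 1 for 56 of the 58 genes. In 49 of the 58, the highest library within each of the 3 light groups was the one that was highest for PCNA. The same held for the lowest library in 36. These genes were chosen by their correlation with PCNA over the same libraries, so the counts follow in part from that choice.

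The median level of the genes that follow PCNA was 6.60, 0.906 and 4.37 FPKM in Las_SL replicates 1 to 3, 1.26, 4.90 and 6.29 FPKM in the Las_ML replicates, and 20.2, 1.56 and 1.03 FPKM in the Las_WL replicates. The median level of the level genes lay between 2.52 and 4.19 FPKM in all 9 libraries. The sums of FPKM per library, which are not read depth, ranged from 718394 to 813150 and differed far less than these medians.

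**Figure D2:**
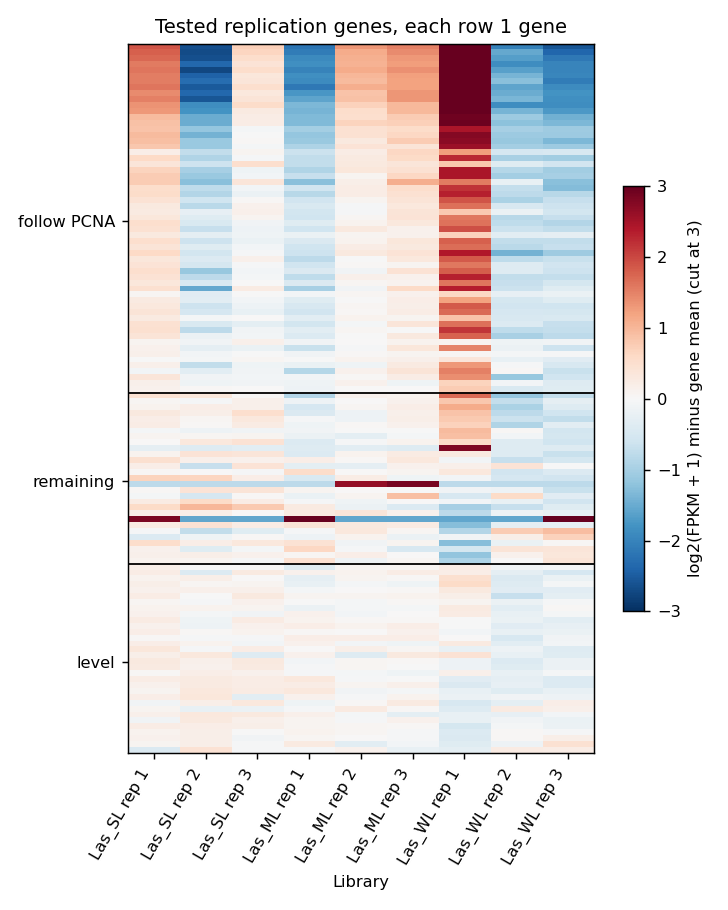
Heat map of the 120 tested replication genes, 1 row per gene and 1 column per library, coloured by log2(FPKM + 1) minus the mean of the gene, with colours cut at 3 log2 units. The upper block of 59 genes that follow PCNA is red in Las_WL replicate 1 and blue in Las_SL replicate 2, Las_ML replicate 1 and Las_WL replicates 2 and 3, whereas the 32 level genes at the bottom are pale throughout.

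The subunits of the MCM helicase, which opens the duplex ahead of the polymerases, each had a gene with a correlation of 1.00 with PCNA after rounding. MCM2 (LOC111912362) had 23.4, 0.193 and 10.6 FPKM in Las_SL replicates 1 to 3, 0.981, 16.1 and 19.5 FPKM in Las_ML, and 105, 1.58 and 1.03 FPKM in Las_WL. MCM4 (LOC111912453) had 17.6, 0.197 and 7.11 FPKM in the Las_SL libraries, 0.807, 11.8 and 14.0 FPKM in the Las_ML libraries, and 73.2, 1.45 and 0.655 FPKM in the Las_WL libraries. MCM6 (LOC111893406) had 17.5, 0.326 and 7.30 FPKM, then 0.722, 11.4 and 13.8 FPKM, and then 71.2, 1.67 and 0.489 FPKM in the same order. All 3 subunits of the ring were high and low in the same libraries as PCNA, and their groups overlapped. MCM3 (LOC111890880), MCM5 (LOC111908347) and MCM7 (LOC111914339) completed the hexamer, with 118, 81.9 and 117 FPKM in Las_WL replicate 1 and 0.760, 0.104 and 0.409 FPKM in Las_SL replicate 2.

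The ratio of the 6 subunits to each other differed between libraries. In Las_SL replicates 1 and 3, Las_ML replicates 2 and 3 and Las_WL replicate 1, the highest subunit exceeded the lowest 1.52- to 1.66-fold, and the mean of the 6 subunits was 0.705 to 0.734 of the PCNA level. In the other libraries, where each subunit was at 1.805 FPKM or less, the highest subunit exceeded the lowest 7.30-fold in Las_SL replicate 2, 3.46-fold in Las_ML replicate 1, 1.58-fold in Las_WL replicate 2 and 2.57-fold in Las_WL replicate 3, and the mean was 0.879 to 1.929 of the PCNA level. Over all libraries PCNA changed 355-fold and the single subunits 156-fold (MCM3) to 787-fold (MCM5).

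**Figure D3:**
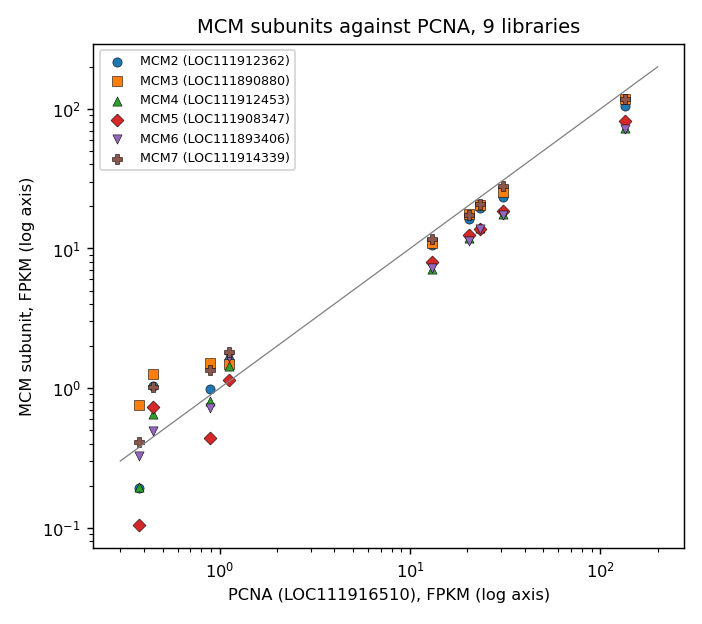
FPKM of the 6 MCM subunits against FPKM of PCNA (both log axes), 1 point per subunit and library, with a grey line of equal values. In the 5 libraries with more than 10 FPKM of PCNA the subunits lie in a narrow band below the line, from 7.11 FPKM (MCM4) to 118 FPKM (MCM3), and in the other 4 libraries they scatter around it at 1.805 FPKM or less.

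Further copies of MCM genes were found at lower levels. LOC111918432, a second gene with the MCM7 number, had 37.1 FPKM in Las_WL replicate 1 and was listed at 0 in Las_SL replicate 2 and Las_WL replicates 2 and 3. LOC111915562, also with the MCM7 number, was at 8.06 FPKM in Las_WL replicate 1 and at 0.0786 FPKM or less in the other 8 libraries, and was placed among the remaining genes (correlation 0.64). How the reads of near-identical copies were shared out is not known, so the level of a single copy is uncertain. The GINS subunits PSF3 (LOC111911267, correlation 0.93) and PSF2 (LOC111899476, 0.89) followed PCNA at low levels, with 6.48 and 9.24 FPKM in Las_WL replicate 1 and 0.218 and 0.327 FPKM in Las_SL replicate 2. Of the 13 tested genes of this role, 10 followed PCNA, 2 stayed level and 1 was among the remaining. Both level genes (LOC111886598 and LOC111907078) carried the MCM5 number and were described as FAD dependent oxidoreductase.

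Of the sliding clamp, both further PCNA genes followed LOC111916510. LOC111919730 had a level of 9.86, 0.279 and 4.32 FPKM in Las_SL replicates 1 to 3, of 0.688, 5.36 and 7.70 FPKM in Las_ML, and of 40.9, 0.677 and 0.348 FPKM in Las_WL (correlation 0.99). LOC111880340 kept a higher floor, with 14.7, 6.06 and 9.10 FPKM in Las_SL, 5.65, 11.6 and 12.6 FPKM in Las_ML and 53.2, 2.82 and 3.89 FPKM in Las_WL (correlation 0.92). Its highest library exceeded its lowest 18.9-fold, against 147-fold for LOC111919730, and the groups of both overlapped.

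The clamp loader RFC is a complex of a large and 4 small subunits. The large subunit gene LOC111915909 (RFC1 number, correlation 0.96) reached 12.4 FPKM in Las_WL replicate 1 and lay at 0.181 FPKM or less in Las_SL replicate 2, Las_ML replicate 1 and Las_WL replicates 2 and 3. LOC111884448 (RFC3 or RFC5 number, 0.90) had 36.8 FPKM in Las_WL replicate 1 and 5.86 to 12.1 FPKM in the others. The member of this role with the highest mean, LOC111920067, carried an RFC number but was described as a protein of unknown function. It had 49.3, 50.6 and 48.8 FPKM in Las_SL, 46.2, 50.7 and 44.5 FPKM in Las_ML and 19.1, 48.8 and 56.0 FPKM in Las_WL, and so was lowest in the library in which PCNA was highest (correlation -0.67). In all, 13 clamp and loader genes followed PCNA, 1 stayed level (LOC111899159, at 0.288 to 1.01 FPKM) and 4 were among the remaining.

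One loader gene had high levels in 2 libraries of the same group. LOC111911529, with the RFC3 or RFC5 number, had 9.80 and 11.4 FPKM in Las_ML replicates 2 and 3, 0.00852 FPKM in Las_SL replicate 1 and was listed at 0 in the other 6 libraries, Las_ML replicate 1 among them.

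Primase and the replicative polymerases held 34 tested genes, of which 16 followed PCNA, 12 stayed level and 6 were among the remaining. The small subunit of primase (LOC111918788), which makes the RNA primer, had 4.44, 0 and 2.29 FPKM in Las_SL replicates 1 to 3, 0.130, 2.99 and 3.78 FPKM in Las_ML and 20.2, 0.317 and 0.0317 FPKM in Las_WL (correlation 0.99). The catalytic subunit of DNA polymerase alpha (LOC111876728), its partner in priming, had 5.76, 0.318 and 2.45 FPKM, 0.566, 3.83 and 4.34 FPKM, and 22.4, 0.648 and 0.635 FPKM in the same order (0.98). Both genes were high and low in the same libraries as PCNA. The catalytic subunit of DNA polymerase epsilon (LOC111905407), assigned to the leading strand in yeast, reached 11.8 FPKM in Las_WL replicate 1 and lay between 0.0453 and 3.21 FPKM elsewhere (0.98).

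DNA polymerase delta, assigned to the lagging strand in yeast, had genes that followed PCNA from a higher floor. A gene of its catalytic subunit (LOC111897619) had 6.43, 2.68 and 4.65 FPKM in Las_SL, 2.70, 4.90 and 6.29 FPKM in Las_ML and 19.4, 1.87 and 2.45 FPKM in Las_WL (correlation 0.94). It spanned 10.4-fold, against 70.5-fold for the catalytic subunit of alpha and 260.3-fold for that of epsilon. The last 2 spans rest on lowest levels of 0.318 and 0.0453 FPKM. LOC111913345 and LOC111884533, with the same number as LOC111897619, also followed PCNA and spanned 4.41-fold and 1.29-fold. The description of LOC111913345 is a protein of unknown function. LOC111894883, with the number of delta subunit 2, stayed level (0.775). Subunit 4 of delta (LOC111921207) had 45.0 FPKM in Las_WL replicate 1 and 7.14 to 20.2 FPKM in the others (0.93).

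The level polymerase gene with the highest mean, LOC111920154, was 1 of 3 level genes with the number of bacterial DNA polymerase I, whose plant relatives of family A are known to copy organelle DNA. It is described by its exonuclease domain and had 34.1, 29.8 and 30.2 FPKM in Las_SL, 23.0, 31.5 and 31.6 FPKM in Las_ML and 35.5, 27.9 and 29.1 FPKM in Las_WL (correlation 0.78). The same number was also carried by genes that follow PCNA. These were LOC111919553 (0.96), LOC111891419 (0.95), LOC111921187 (0.94) and LOC111911668 (0.87). LOC111885059, described as a family A polymerase, had 4.69, 5.28 and 5.10 FPKM in Las_SL, 5.11, 4.50 and 4.82 FPKM in Las_ML and 2.88, 3.41 and 2.92 FPKM in Las_WL. Its Las_WL libraries lay below all others, while LOC111920154 overlapped between all groups. The lowest correlation of this role, -0.74, belonged to LOC111879313, an uncharacterized gene at 0.680 to 1.96 FPKM.

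Replication protein A followed PCNA with each of its 3 subunits. RPA1 (LOC111910499), the large subunit that binds single-stranded DNA, had 24.7, 0.158 and 10.6 FPKM in Las_SL replicates 1 to 3, 0.748, 15.2 and 18.8 FPKM in Las_ML and 96.7, 1.56 and 0.437 FPKM in Las_WL. RPA2 (LOC111892174) had 62.0 FPKM in Las_WL replicate 1 and 0.0762 FPKM in Las_SL replicate 2 (correlation 0.99), and RPA3 (LOC111897084) had 30.5 FPKM in Las_WL replicate 1 and 0.898 to 8.05 FPKM elsewhere (0.97). All 3 subunits were highest in Las_WL replicate 1, and RPA1 and RPA2 were, as PCNA, lowest in Las_SL replicate 2, whereas RPA3 was lowest in Las_WL replicate 3. The role held 35 tested genes, of which 11 followed PCNA, 10 stayed level and 14 were among the remaining.

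Several tested genes with an RPA number that did not follow PCNA were described as other proteins. The same held for LOC111907636, an FKBP62-like peptidyl-prolyl isomerase by description, which followed PCNA (correlation 0.91). The highest mean of the role, 84.8 FPKM, belonged to LOC111915476, described as an FKBP-type peptidyl-prolyl isomerase, which had 107, 82.3 and 97.7 FPKM in Las_SL, 84.5, 94.3 and 86.9 FPKM in Las_ML and 71.2, 75.1 and 64.2 FPKM in Las_WL and was level. LOC111896816, described as a disease resistance protein, had the lowest correlation (-0.76), with 0.478 FPKM in Las_WL replicate 1 and 1.54 to 2.89 FPKM in the others.

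Of the genes that remove primers and seal the strand, 7 followed PCNA, 6 stayed level and 4 were among the remaining. Flap endonuclease 1 (FEN1, LOC111892034) had 12.9, 7.42 and 10.5 FPKM in Las_SL, 6.22, 10.4 and 13.4 FPKM in Las_ML and 31.7, 5.13 and 5.74 FPKM in Las_WL (correlation 0.93). Its span of 6.17-fold was far smaller than the 551-fold span of Dna2 (LOC111891830, 0.96), a helicase and nuclease that had 10.5 FPKM in Las_WL replicate 1 and 0.0190 FPKM in Las_WL replicate 3. RNase H2, which cuts RNA in RNA-DNA hybrids, had subunit C (LOC111902901, 0.95) and subunit A (LOC111916276, 0.90) among the genes that follow PCNA. Subunit B (LOC111897279) was the first gene below the threshold, at 0.7996, with the MCM6 copy LOC111898288 (0.808) and the RFC1 gene LOC111914702 (0.807) just above it.

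The ATP-dependent DNA ligases fell into different classes. LOC111886023 followed PCNA with 8.84, 5.52 and 6.63 FPKM in Las_SL, 5.28, 7.05 and 8.36 FPKM in Las_ML and 17.7, 4.58 and 5.29 FPKM in Las_WL (correlation 0.90). LOC111909977 stayed level, with 5.83, 5.17 and 5.43 FPKM in Las_SL, 5.09, 5.03 and 5.49 FPKM in Las_ML and 4.66, 4.11 and 4.25 FPKM in Las_WL (0.40). Las_WL replicate 1 was the highest library of the first gene. The Las_WL libraries were the 3 lowest of the second gene, with replicate 1 the highest among them. With each library centred on its group mean, the correlation of LOC111909977 with PCNA was 0.82. The lowest correlation of the role, -0.79, belonged to LOC111917894, which carried the ligase number but was described as a multi antimicrobial extrusion protein.

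Ribonucleotide reductase, which makes deoxynucleotides from ribonucleotides, split by subunit within the rule. The large subunit LOC111882479 had 35.1, 1.11 and 15.6 FPKM in Las_SL replicates 1 to 3, 3.19, 22.2 and 30.7 FPKM in Las_ML and 118, 3.84 and 2.48 FPKM in Las_WL (correlation 0.99). A second large subunit gene, LOC111918906, followed with 18.2 FPKM in Las_WL replicate 1 and 2.45 to 6.84 FPKM in the others (0.93). The small chain LOC111876578 stayed level, with 2.95, 3.77 and 4.25 FPKM in Las_SL, 2.90, 3.35 and 4.14 FPKM in Las_ML and 2.05, 2.47 and 3.89 FPKM in Las_WL (-0.30). The small subunit number was also carried by LOC111888996 and LOC111877717, whose descriptions lie outside the rule and which were looked up after the values of LOC111876578 were seen. Both were high in the libraries in which PCNA was high, with 119 and 80.3 FPKM in Las_WL replicate 1 and 0.839 and 1.23 FPKM in Las_SL replicate 2 (correlations 0.997 and 0.988).

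**Figure D4:**
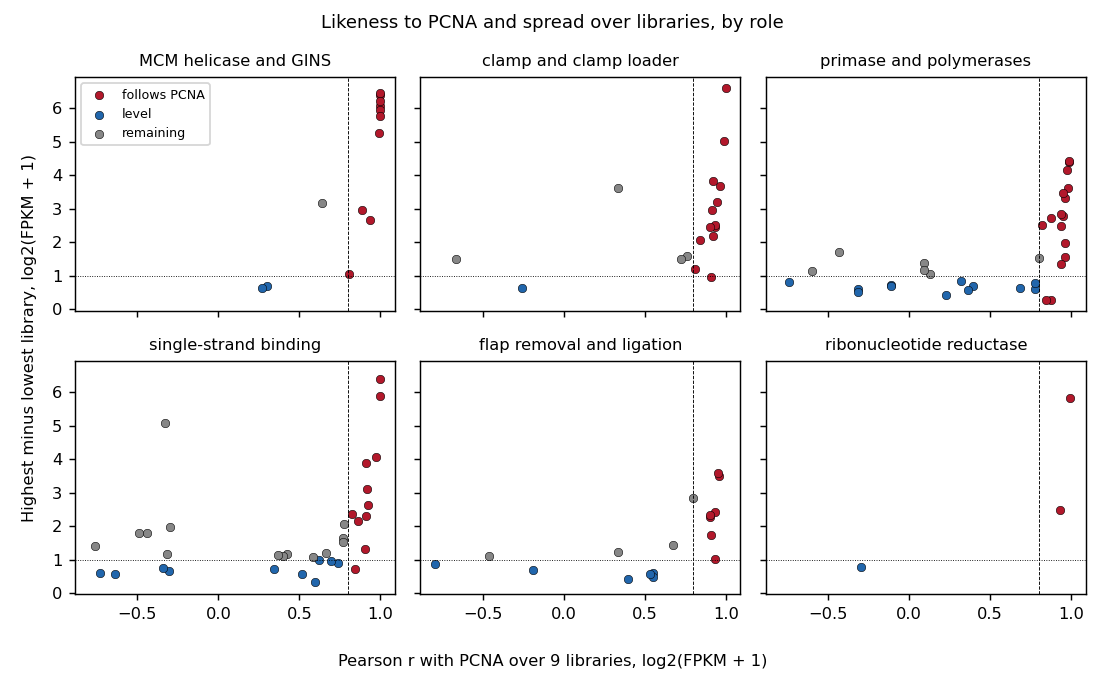
Pearson correlation with PCNA over the 9 libraries (horizontal) and difference between the highest and the lowest library on the log2(FPKM + 1) scale (vertical) for the 120 tested genes, 1 panel per role and 1 point per gene. The dashed line marks the correlation of 0.8 and the dotted line the span of 1 log2 unit; MCM and GINS genes crowd the upper right, with spans up to 6.47, and the single-strand binding genes spread over the whole range of correlations.

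Between light groups, no gene that follows PCNA was called. Expression was compared with limma on log2(FPKM + 1) over all 26145 genes tested, and calls needed both a Benjamini-Hochberg adjusted p below 0.05 and a log2 fold change of 1 or more in size. Of the 120 replication genes, 0 were called in Las_SL vs. Las_ML (0.00382% of all genes), 0 in Las_WL vs. Las_ML (0% of all genes) and 1 in Las_SL vs. Las_WL (2.93% of all genes, 2.73% being higher in Las_SL as this gene was). With the adjusted p alone there were 2 in Las_SL vs. Las_WL (5.94% of all genes). The paper set an unadjusted p and a fold on edgeR tests. The same thresholds on the limma fit gave 1 in each comparison, beside 1.43%, 2.27% and 6.27% of all genes in the order above. The gene was LOC111911529 in both comparisons with Las_ML and LOC111913805 in Las_SL vs. Las_WL. At an unadjusted limma p below 0.05 the numbers were 3, 9 and 16 of 120, against 5.52%, 13.8% and 26.3% of all genes. Of the 59 genes that follow PCNA, 0 reached this in any of the 3 comparisons. The level genes gave 0, 4 and 8 of 32 and the remaining genes 3, 5 and 8 of 29. The classes were drawn from these same libraries, by likeness to PCNA, which varied widely within groups, or by a narrow span. The counts per class therefore follow in part from how the classes were defined, and a level gene could not reach the fold threshold.

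The sizes of these differences were small beside their errors in the genes that follow PCNA. Their median log2 fold change was -0.08 in Las_SL vs. Las_ML, 0.07 in Las_WL vs. Las_ML and -0.17 in Las_SL vs. Las_WL, with a median standard error of 0.69. PCNA itself had log2 fold changes of -0.22, -0.41 and 0.19 with a standard error of 1.94, MCM2 of -0.35, -0.11 and -0.24 with 1.76, and the large subunit of ribonucleotide reductase LOC111882479 of -0.43, -0.21 and -0.22 with 1.56. A change of several fold in these 3 genes would not have been detectable in this design. The level genes had medians of 0.08, -0.19 and 0.23 with a median standard error of 0.16, beside 0.05, -0.13 and 0.18 over all genes with 0.25.

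The called gene was LOC111913805, an uncharacterized gene with the RPA1 number and Gene Ontology terms of DNA helicase activity and telomere maintenance. It had 3.26, 4.70 and 3.94 FPKM in Las_SL, 2.42, 1.54 and 1.16 FPKM in Las_ML and 0.442, 0.757 and 1.23 FPKM in Las_WL. All Las_SL libraries lay above all Las_ML libraries, and these overlapped with Las_WL in 1 library. It was higher in Las_SL than in Las_WL by a log2 fold change of 1.47 (standard error 0.23, limma adjusted p = 0.0261), and did not pass in Las_SL vs. Las_ML (0.89, adjusted p = 0.682) or Las_WL vs. Las_ML (-0.58, adjusted p = 0.335). The call held under 8 of 17 alternative settings, with limma adjusted p-values from 0.0184 to 0.128 and log2 fold changes from 1.21 to 2.24. The 8 include the same fit read at the unadjusted p and fold of the paper and without a minimum fold. A called gene cannot fail these settings, so they add no support. The call was lost without any 1 of the Las_SL replicates, Las_ML replicates 2 and 3 or Las_WL replicate 2 (adjusted p from 0.0506 to 0.119). Its log2 fold change was 1.37 to 1.58 in these fits. Over all genes they called 0 to 244 in Las_SL vs. Las_WL, against 767 with all libraries, so the loss was not particular to this gene. The family A polymerase LOC111885059 passed the limma adjusted p (0.0446) in Las_SL vs. Las_WL but not the fold, at 0.57 (standard error 0.13). Under the alternative settings its limma adjusted p was 0.0254 to 0.397 and its log2 fold change 0.34 to 0.69. The adjusted p rose above 0.05 without any 1 library other than Las_WL replicate 1.

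Single libraries decided the other counts. Without Las_WL replicate 1, 5 replication genes were called in Las_SL vs. Las_WL, beside 4.19% of all genes. LOC111913805 (1.32), RNase H2 subunit B LOC111897279 (1.22), LOC111877933 with the ligase number (1.04) and LOC111876905 with the number of a bacterial-type single-strand binding protein (1.02) were higher in Las_SL, and LOC111896913, an FKBP-type isomerase by description, was lower (log2 fold change -1.22). The 5 limma adjusted p-values ranged from 0.0184 to 0.0402, and none of these genes was among those that follow PCNA. The other comparisons gave 0 replication genes without this library, beside 0.00774% (Las_SL vs. Las_ML) and 0.31% (Las_WL vs. Las_ML) of all genes. Without Las_ML replicate 1, the loader gene LOC111911529 was called lower in Las_SL and in Las_WL than in Las_ML (log2 fold change -3.53 in both, adjusted p = 0.00065 in both), where 0.0421% and 0.0306% of all genes were called, and LOC111913805 stayed called in Las_SL vs. Las_WL (1.44% of all genes).

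**Figure D5:**
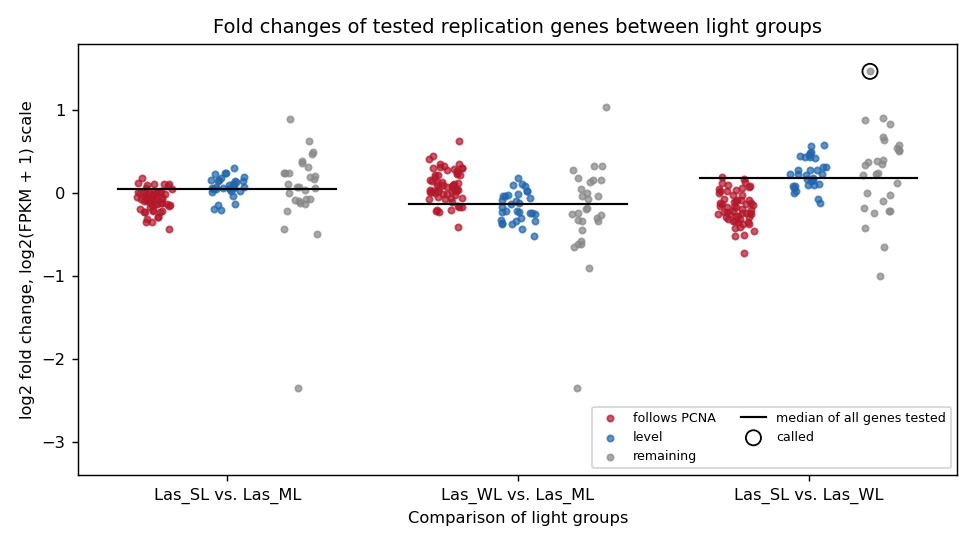
Log2 fold changes of the 120 tested replication genes in the 3 comparisons of light groups, 1 point per gene (jittered within its class), with a black bar at the median of all genes tested (0.05, -0.13 and 0.18). The genes that follow PCNA lie between -0.72 and 0.63, the open ring marks the only called gene (LOC111913805, 1.47), and the points near -2.35 are LOC111911529.

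Other genes of the S phase moved with PCNA in the same libraries. Of 39 core histone genes, which package the new DNA, 36 followed PCNA, and their summed level was between 906 FPKM in Las_WL replicate 3 and 11454 FPKM in Las_WL replicate 1. The genes outside the replication set most like PCNA, among those with a mean of at least 5 FPKM, were 2 genes described as histone H2B.3-like (LOC111886065 and LOC111886029), a core histone (LOC111911136), a cyclin (LOC111895651) and an undescribed gene (LOC111899289). Of 6 genes of the E2F and retinoblastoma families, which switch S phase genes on and off, 5 followed. E2FA (LOC111883257) had 9.68 FPKM in Las_WL replicate 1 and 0.559 FPKM in Las_SL replicate 2, the retinoblastoma-related gene LOC111912355 had 26.4 and 12.5 FPKM in these libraries, and LOC111910959, an E2F family gene, had 5.27 and 7.08 FPKM (correlation 0.16).

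Of genes described with the word cyclin (without kinase or inhibitor) or with kinesin, 73 of 247 followed PCNA. This list does not separate cyclins from proteins described as cyclin-like, nor mitotic kinesins from others. In further lists, 101 of 285 genes of DNA repair pathways and 1 of 3 genes of deoxynucleotide supply followed PCNA. Of all genes 19.1% did so. The 1 supply gene was the thymidylate kinase LOC111889282 (0.94). In Las_SL vs. Las_WL, 4 genes of the cyclin and kinesin list and 3 repair genes were called higher in Las_SL (2.73% of all genes). From these lists 0 were called lower. In the same comparison 0 histone, E2F or supply genes were called (1 of each list had an unadjusted limma p below 0.05). In the other comparisons, 0 genes of these lists were called, with 0 to 16 genes of a list at an unadjusted limma p below 0.05 in Las_SL vs. Las_ML (5.52% of all genes) and 0 to 33 in Las_WL vs. Las_ML (13.8% of all genes).

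Markers of leaf tissue were read beside these values. The summed level of 29 chlorophyll a/b binding and Rubisco small subunit genes was 10624 FPKM in Las_WL replicate 1, the lowest, and 11188 to 27429 FPKM in the other libraries, and 1 of its 25 tested genes followed PCNA. The list of meristem genes held 2 genes, a WUSCHEL and a KNOX2-like gene, which summed to 0.129 FPKM or less in each library. A list meant for other organs (62 genes) drew mostly on a domain that lipid transfer proteins share with seed storage proteins, summed to 998 to 5424 FPKM with the highest value in Las_WL replicate 1, and had 3 of 30 tested genes that follow PCNA. The part of the tissue makeup in the differences between libraries was not tested.

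Few circular RNAs came from these genes. Of 1650 circRNAs, 3 came from replication genes, with 1 back-spliced read each of 6836 in all. The set held 234 of the 35342 genes in the table, and 114 of them had a mean below 0.5 FPKM. Whether 3 is few for genes of such levels was not tested. They belonged to MCM2 (circRNA311, 3 exons, read in Las_SL replicate 2), FEN1 (circRNA922, 7 exons, read in Las_ML replicate 2) and the RPA2 gene LOC111909598 (circRNA1298, 3 exons, read in Las_WL replicate 1). The MCM2 circRNA was read in the library in which MCM2 had its lowest level, 0.193 FPKM. With a single read each, no comparison between libraries or light groups could be made.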

How the data were processed

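Leaf RNA of 9 libraries (3 light groups of 3) was analysed. The FPKM values per gene were computed by the authors on Lsat_Salinas_v7, and the circRNA counts of back-spliced reads were deposited by them without normalization. The paper names Bowtie2, TopHat2 and CIRCexplorer2, while the submitters' processing notes name Bowtie 0.12.2, HISAT2 2.0 and StringTie 1.3.0. Their SRPBM signal was not used. No gene read counts were used. Ratios of values below 0.1 FPKM between libraries did not fall on steps of whole reads (the commonest ratio, in bins of 0.02 log2 units, held 1.41% to 4.00% of genes), so the depth behind an FPKM value is unknown and no counting intervals are given.

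Genes with a mean of at least 0.5 FPKM (26145 of 35342) were tested with limma 3.58.1 (trend) in R 4.3.3 on log2(FPKM + 1), in 1 fit over all 9 libraries without a block, two-sided, with Benjamini-Hochberg adjustment over all genes. Fold changes on this scale understate changes of low genes. The test was tested on simulated data. PCNA was compared by exact permutation. Gene lists were drawn from words in the descriptions and KEGG terms. Correlations are descriptions without p-values. Roles come from KEGG numbers, and 205 of 234 genes matched the RefSeq gene table. In the table, 3804 rows have no gene name. No gene of origin recognition was in the set, and promoter sequences were not analysed here.

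Genes named are the given markers, the highest mean and the highest and lowest correlation per role, called genes, the 5 genes most like PCNA and genes with a circRNA. Others were named for their role after their values were seen. The members and lists were chosen with earlier results of these data known. The settings varied were the pseudocount (0.1), the filter (none, or at least 5 FPKM), quantile normalization, rescaling without the 10 most abundant genes, other thresholds, the libraries of the comparison alone, a replicate block, each library left out in turn, and, added after seeing the data, members with a Gene Ontology term of replication. Samples carry replicate numbers, and biological replicates are stated in the paper.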

Additional observations from a re-analysis of the deposited data

How the results depend on the processing

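Of the settings tried, 138 values kept their direction and their side of the threshold or stayed within 1.5 times, and 36 did not; the cause was not tested. In Las_SL vs. Las_WL the 1 replication gene called became 2 with no minimum fold change (LOC111885059 added at 0.57). The count became 0 at a mean of at least 5 FPKM (LOC111913805 is then filtered out), with quantile normalization, and with only the libraries of the comparison. Leaving out 1 replicate gave 0 to 5. Over all genes, 767 were called in the main fit, 1552 with no minimum fold change and 567 at a mean of at least 5 FPKM. Quantile normalization gave 6, only the libraries of the comparison gave 1, and leaving out 1 replicate gave 0 to 1084. The losses with quantile normalization and with only the libraries of the comparison were thus not particular to replication genes. In both other comparisons the 0 called became 1 at the unadjusted p and fold of the paper, and leaving out 1 replicate gave 0 to 1. Over all genes, that threshold gave 373 in Las_SL vs. Las_ML and 594 in Las_WL vs. Las_ML. Leaving out 1 replicate gave 0 to 11 and 0 to 80 there, against 1 and 0 in the main fit. Quantile normalization moved the median of all genes in Las_SL vs. Las_WL from 0.18 to -0.01. The 32 level genes became 19 with a pseudocount of 0.1 and 7 among genes with a Gene Ontology term of replication (45 followed PCNA there), and leaving out 1 library gave 30 to 43. The 58 genes that follow PCNA were 46 to 68 under the other settings and 53 to 70 without 1 library. On the log2(FPKM + 1) scale the PCNA differences reversed in Las_WL vs. Las_ML (-0.41) and Las_SL vs. Las_WL (0.19). Leaving out 1 library moved the PCNA difference from -0.1142 to between -8.12 and 7.06 FPKM in Las_SL vs. Las_ML, from 30.4 to between -14.06 and 52.7 FPKM in Las_WL vs. Las_ML and from -30.5 to between -52.9 and 13.9 FPKM in Las_SL vs. Las_WL.

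No pairing of the libraries by replicate number was seen, although the check used cannot exclude one. Deviations from the group mean correlated at -0.52 to 0.56 for libraries of the same number (median -0.05, 9 pairs) and at -0.61 to 0.57 for different numbers. With a replicate block 0 genes were called in each comparison, so the call of LOC111913805 was lost (adjusted p = 0.0733).

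The number of libraries and the spread within light groups limit these comparisons most for the genes with the widest spans. Reads behind the FPKM values are unknown.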

Other observations

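A pair of genes were listed at 0 in some libraries and above it in others, in an order other than that of PCNA. LOC111892960, an uncharacterized gene with the RPA1 number, had 20.1 FPKM in Las_SL replicate 1, 24.1 FPKM in Las_ML replicate 1 and 32.5 FPKM in Las_WL replicate 3, and was listed at 0 in the other 6 libraries, so each light group held 1 library with the gene and 2 without. LOC111895590, described as subunit B of DNA polymerase alpha or epsilon, had 1.86 to 2.29 FPKM in all Las_SL and Las_ML libraries, 1.02 and 1.05 FPKM in Las_WL replicates 2 and 3, and was listed at 0 in Las_WL replicate 1. These genes were chosen after their values were seen.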
